A study of Caenorhabditis elegans with 2 samples.

Results

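Small nucleolar RNA (snoRNA) genes that lie inside protein-coding genes were examined for binding of T07F8.4, a *Caenorhabditis elegans* protein, by chromatin immunoprecipitation and sequencing. A gene counted as hosted if Ensembl annotated it as snoRNA and if it lay wholly within a protein-coding gene on the same strand, which gave 183 of the 346 nuclear snoRNA genes and of 46926 annotated genes in all. They sat in 159 host genes. The other 163 snoRNA genes had no such host and are called unhosted here.

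The immunoprecipitated animals were whole young adult hermaphrodites of strain OP478, genotype unc-119(tm4063) III; wgIs478, collected 64 hours after the synchronization of starved first-stage larvae. This strain carries an inserted transgene that makes T07F8.4 with a GFP-FLAG tag at its carboxyl end, and an antibody against GFP pulled down the tagged protein. The 2 replicates form 1 group with no second genotype, age or treatment, and no input or control library was analysed here, so no condition was compared. Whole animals mix all tissues, and binding in few cells cannot be told apart from weak binding in many. Each region in the deposited lists carries a signal, on a scale not given in the sources used here. It is therefore used only to rank regions within a list, and the read depth behind it is unknown.

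snoRNAs guide chemical modification of ribosomal and other RNAs. Box C/D snoRNAs carry the C box near their 5′ end and the D box near their 3′ end and direct 2′-O-methylation, while H/ACA snoRNAs end shortly after an ACA triplet and direct pseudouridylation. In vertebrates most snoRNAs lie in introns and are released from the spliced host transcript. In *C. elegans* some intronic snoRNA genes are instead known to have promoters of their own within the intron. Genes for tRNAs are transcribed by RNA polymerase III from promoter elements inside the gene, the A box and, further downstream, the B box.

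The sequences just before the snoRNA starts are shown first, because 21 of 28 reproducible summits at hosted genes fell on them. Each window covers the 100 bases before the annotated start, on the strand of the snoRNA, in the WBcel235 assembly (ce11) as given by RefSeq. In the first set of 5, capitals mark TGGCNNAG, letters that occur in the A box of tRNA genes, and TTCGANNC, letters of the B box, where N is any base.
upstream of C51F7.3, chrV:12303608-12303707, plus strand: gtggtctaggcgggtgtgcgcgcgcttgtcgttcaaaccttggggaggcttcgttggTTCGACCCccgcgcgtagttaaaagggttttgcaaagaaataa
upstream of Y43F8C.22, chrV:19643188-19643287, minus strand: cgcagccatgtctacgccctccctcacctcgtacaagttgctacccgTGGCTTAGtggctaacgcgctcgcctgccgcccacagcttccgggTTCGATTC
upstream of F55A11.10, chrV:11782892-11782991, plus strand: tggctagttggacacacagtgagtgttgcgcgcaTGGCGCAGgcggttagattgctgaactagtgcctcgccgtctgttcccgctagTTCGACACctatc
upstream of T24H7.6, chrII:6248617-6248716, plus strand: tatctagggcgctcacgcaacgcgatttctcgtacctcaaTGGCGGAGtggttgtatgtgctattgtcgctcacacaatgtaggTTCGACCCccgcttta
upstream of ZK546.18, chrII:4942520-4942619, minus strand: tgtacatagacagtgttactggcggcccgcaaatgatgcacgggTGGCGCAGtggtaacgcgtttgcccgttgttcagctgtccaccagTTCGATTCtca
In the second set, also of 5 windows, capitals mark AACNCG followed 5 bases later by TGTCNG, called the paired element here. Not all of these windows hold a reproducible summit. Those of C08D8.3 and C16D9.11 lay 5 bp and 27 bp inside the gene. T06D8.11 had only a summit of the authors' longer pooled list, 53 bp inside the gene.
upstream of ZK994.7, chrV:8500479-8500578, plus strand: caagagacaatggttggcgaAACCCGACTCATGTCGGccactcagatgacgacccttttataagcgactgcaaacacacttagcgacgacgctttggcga
upstream of C08D8.3, chrV:8349008-8349107, plus strand: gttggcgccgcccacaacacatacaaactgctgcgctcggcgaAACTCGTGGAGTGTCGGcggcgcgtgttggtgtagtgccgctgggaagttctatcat
upstream of F01D5.12, chrII:14018442-14018541, minus strand: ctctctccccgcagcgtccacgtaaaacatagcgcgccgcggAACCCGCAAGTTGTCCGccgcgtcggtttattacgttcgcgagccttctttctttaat
upstream of C16D9.11, chrV:8228970-8229069, minus strand: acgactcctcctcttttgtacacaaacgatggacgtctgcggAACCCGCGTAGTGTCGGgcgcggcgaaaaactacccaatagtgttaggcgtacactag
upstream of T06D8.11, chrII:11224082-11224181, plus strand: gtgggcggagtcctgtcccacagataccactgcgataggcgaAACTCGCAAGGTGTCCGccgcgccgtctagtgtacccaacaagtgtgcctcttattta
A contrasting window comes from rps-12, which encodes a ribosomal protein of the small subunit and whose snoRNA gene F54E7.11 had no summit. It holds none of these motifs, but it is only an example. The windows of Y24D9A.9 and Y43B11AR.7, also in ribosomal protein hosts and without a summit, hold TTCGANNC and TGGCNNAG in that order of genes. In such hosts the snoRNA starts lay 6 to 72 bases from the upstream exon, so this window includes host exon sequence. Of the 28 windows at genes with a reproducible summit, 8 also held none of these motifs.
upstream of F54E7.11, chrIII:5679645-5679744, plus strand: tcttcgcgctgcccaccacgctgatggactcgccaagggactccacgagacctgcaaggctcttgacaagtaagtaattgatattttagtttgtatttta

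Of the genes themselves, C51F7.3 is shown as a box C/D-like gene, with capitals on TGATGA, which contains the C box core, and on CTGA, the D box. T24H7.6 is shown as an H/ACA-like gene, with its ACA in capitals.
C51F7.3 gene, chrV:12303708-12303783, plus strand: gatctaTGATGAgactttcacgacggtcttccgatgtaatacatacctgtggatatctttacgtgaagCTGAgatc
T24H7.6 gene, chrII:6248717-6248855, plus strand: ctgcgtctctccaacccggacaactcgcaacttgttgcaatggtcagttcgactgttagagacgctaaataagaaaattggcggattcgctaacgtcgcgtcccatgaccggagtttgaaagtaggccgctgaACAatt

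Regions of high confidence, called in the authors' list of peaks that passed the irreproducible discovery rate (IDR) procedure, are termed reproducible. The authors' pooled list of peaks and background is far longer and mostly holds weak regions. Genes with a reproducible summit close to their start are called bound for short. A reproducible summit lay within 200 bp of the start of 28 of the 183 hosted snoRNA genes, or 15.3% (95% Wilson interval 10.8% to 21.2%, here as elsewhere for counting error only). Over all 46890 nuclear genes the share was 1.47%. Another 41 hosted genes, or 22.4%, had only a summit of the pooled list that close, and 114, or 62.3%, had neither. Any pooled summit was thus present at 37.7% of hosted genes (31% to 44.9%), against 10.7% of all nuclear genes. Where hosted genes had any summit, it was reproducible at 28 of 69, or 40.6%, against 13.7% of all nuclear genes with one.

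Hosted genes had reproducible summits somewhat less often than unhosted ones, within overlapping intervals. At hosted genes the share was 15.3%, and summits were found at 36 of the 163 unhosted snoRNA genes, or 22.1% (16.4% to 29.1%). Any pooled summit was present at 43.6% of unhosted genes (36.2% to 51.2%), and it was reproducible at 36 of 71. Among the 612 nuclear tRNA genes, 271 had a reproducible summit within 200 bp of the start, or 44.3%. With 1 group of 2 replicates no test between these gene classes was made.

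The 28 hosted genes with a reproducible summit had 27 distinct summits in 27 hosts, since C51F7.3 and C51F7.4 in frm-7 share one. Their pooled signal ran from 69.32 to 364.2 with a median of 128.3 (quartiles 95.54 and 163.4, 95% order-statistic interval of the median 99.48 to 153.8). At the 36 unhosted genes the median was 138.9 (quartiles 112 and 170.8), at tRNA genes 94.19, and over all 600 nuclear reproducible peaks 90.75. The highest and the next highest nuclear peak in the data both lay at hosted snoRNA genes, which held 6 of the 50 highest and 27 of all 600. Hosted genes with only a pooled summit had a median signal of 31.1 (17 to 68.04), against 22.99 over all 16935 nuclear pooled regions. The authors' −log10 q was between 2.5 and 2.92 at the 28 reproducible summits and between 0.0182 and 2.69 at the 41 others, with a median of 0.786.

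The strongest summit lay 62 bp upstream of C51F7.3, in the fourth intron of frm-7, which encodes a FERM domain protein. Its signal was 364.2 in the pooled list, 158.5 in replicate 1 and 204.6 in replicate 2. The same summit lies 47 bp inside C51F7.4, a second annotated snoRNA gene that ends before C51F7.3 begins and overlaps a frm-7 exon. Much of the C51F7.3 upstream window, including its B box-like letters, is thus also the sequence of C51F7.4, and the data cannot assign the summit to one of them. The next strongest was at ZK994.7, in an intron of pxn-1 (a peroxidasin), with a signal of 331.8 (182.2 and 145.9 in replicates 1 and 2) and the summit 19 bp upstream of the start. Both values stood well apart from the third, 211.8 at C27H6.5.

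C27H6.5 lies in unc-41, which encodes a stonin-like protein of synaptic vesicle recycling. Its signal was 129.0 in replicate 1 and 89.99 in replicate 2, with the pooled summit 43 bp upstream. C10C6.8 in catp-8, a P-type ATPase gene, had 205.8 in the pooled list, 91.5 in replicate 1 and 114.0 in replicate 2, with the summit 48 bp upstream. Ranked within each list, C27H6.5 was at place 26 in replicate 1 and 57 in replicate 2, and C10C6.8 at 63 and 31. D1046.6 in cfim-2 (cleavage factor for mRNA 3′ ends) followed with 190.1 and a summit 27 bp upstream, then Y43F8C.22 in Y43F8C.7 with 183.0 and a summit 40 bp upstream. All of these summits, that of C51F7.4 apart, lay before the snoRNA start and inside the host intron.

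The middle of the order, from 156.8 to 97.97, was held by F38E11.14 in the channel gene cng-3 (156.8), C05D2.15 in madf-11 (153.8), F11A10.9 in rbm-34 (146.4), F55A11.10 in F55A11.6 (140.9), W08G11.6 in W08G11.3 (136.1) and Y38F2AR.14 in Y38F2AR.12 (133.9). Below them came T08B2.13 in the phenylalanyl-tRNA synthetase gene fars-1 (132.5), M106.6 in the condensin gene mix-1 (124.1), F19H8.6 in mltn-9 (109.9) and K11C4.6 in the β-spectrin gene unc-70 (108.8). T24H7.6 in T24H7.2 (105.1), ZK546.18 in the Mediator gene mdt-4 (100.3), C14C10.8 in ril-2 (99.48) and C08D8.3 in C08D8.1 (97.97) closed this range. The remaining 7 genes had 88.26 or less, from Y37E3.20 in pcyt-2.1 down to F17C11.15 in the elongation factor gene eef-1G (69.32). Also among these 7 were F01D5.12 in F01D5.10 (86.77), Y71F9AM.7 in the Golgi complex gene cogc-3 (76.66), F26D10.24 in the Hsp70 chaperone gene hsp-1 (76.34), C16D9.11 in the receptor kinase gene rol-3 (75.25) and Y71D11A.7 in acsd-1 (72.21).

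**Figure D1:**
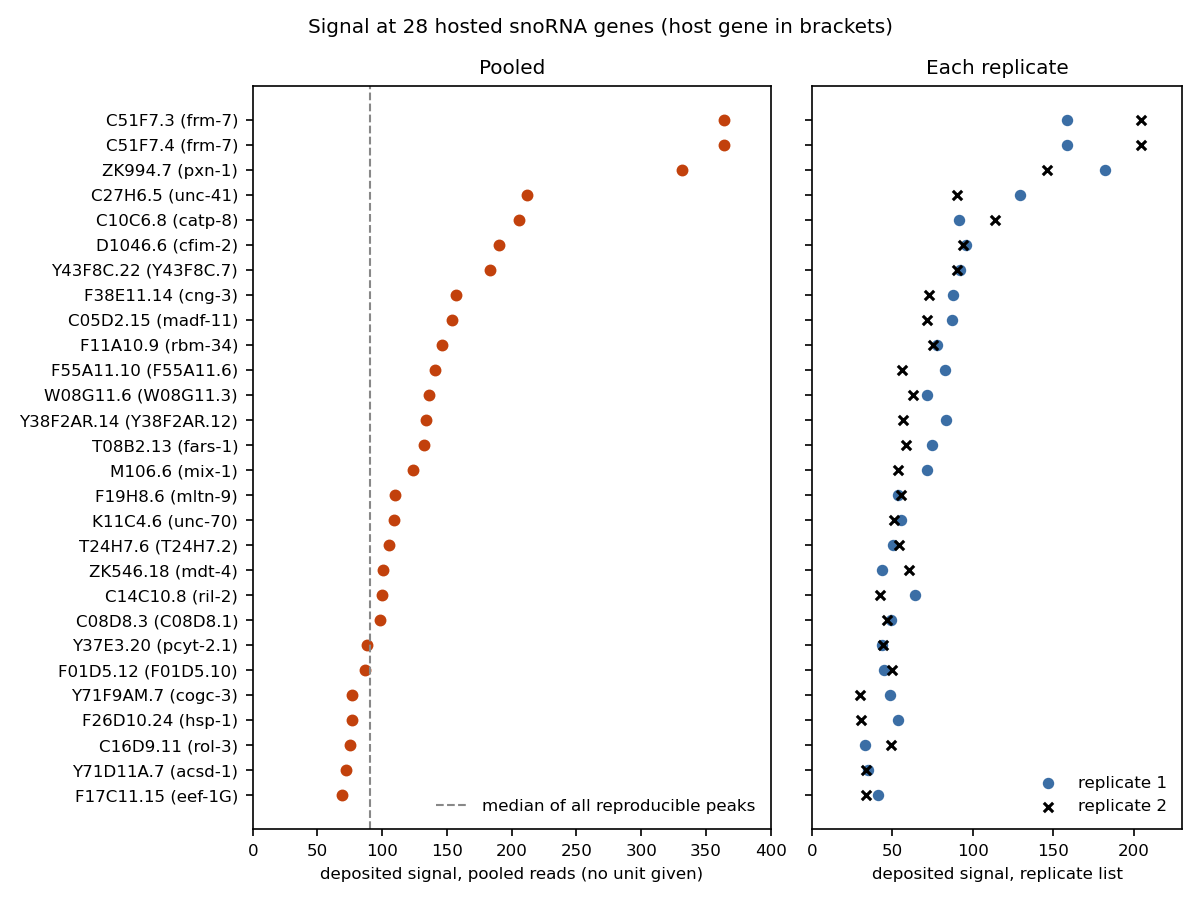
Deposited signal at the 28 hosted snoRNA genes with a reproducible summit, in descending order, in the pooled list (left) and in each replicate's own list (right); the dashed line is the median of all reproducible peaks, 90.75. C51F7.3, C51F7.4 (one shared summit) and ZK994.7 stand apart at 331.8 and above, and 7 genes fall below the line.

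Both replicates saw these summits. A summit of each replicate's own list lay within 100 bp of the pooled one at 28 of 28 hosted genes, against 95.2% of all nuclear reproducible peaks. This agreement is partly built in, because the reproducible list was selected for agreement between the replicates. Of the 28, 26 were among the 621 highest regions of replicate 1, 24 among those of replicate 2, and 23 among both. At the 41 genes with only a pooled summit, 16 had one in both replicate lists (39%, against 23.6% of the other nuclear pooled regions), 29 in replicate 1 and 25 in replicate 2, and 3 in neither. Only 2 of the 41 were among the 621 highest regions in replicate 1, and 2 in replicate 2. Across the 27 distinct reproducible summits the signals of the replicates had a Pearson correlation of 0.876 and a Spearman correlation of 0.847, given as a description of a list selected for agreement. The rank was higher in replicate 1 for 14 of the 27.

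The summits lay upstream of the snoRNA genes. Among the 28, the median position was 39.5 bp before the start (quartiles -53 and -6.25 bp, range -96 to 129 bp, where negative values are upstream). Upstream summits numbered 21 of 28, and 20 of them lay 10 to 75 bp before the start. The median was -33 bp with the summits of replicate 1 and -37.5 bp with those of replicate 2, a spread of 3.18 bp (SD, n = 2). Summits of the replicates were a median of 14.5 bp apart (2 to 129 bp), against 27 bp over the 571 nuclear reproducible peaks that have one in both lists. Unhosted genes were alike in this respect, with a median of -44.5 bp (quartiles -51.75 and -26.75) and 31 of 36 summits upstream. At tRNA genes, whose promoter elements are internal, the median lay 10 bp inside the gene.

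Pooled-only summits did not share this position. Their median was 37 bp inside the snoRNA gene (quartiles -49 and 111 bp), and 17 of 41 were upstream. The 7 reproducible summits downstream of the start were those of C08D8.3 (5 bp), Y38F2AR.14 (7 bp), Y71F9AM.7 (22 bp), C16D9.11 (27 bp), C51F7.4 (47 bp), F26D10.24 (87 bp) and F17C11.15 (129 bp). Those of F26D10.24 and F17C11.15 lay farthest in. For C16D9.11 the replicates lay on both sides of the start, at -60 bp in replicate 1 and 69 bp in replicate 2.

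**Figure D2:**
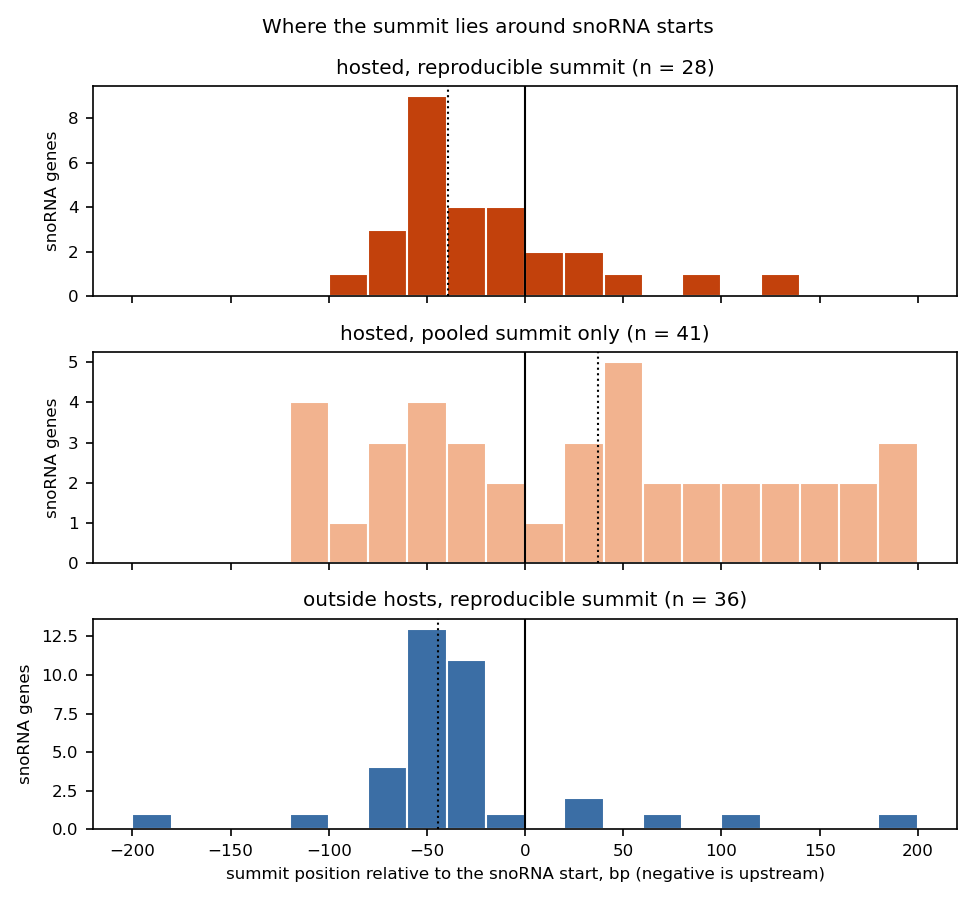
Number of snoRNA genes by position of the summit relative to the annotated start, in equal steps, for hosted genes with a reproducible summit (top), hosted genes with a pooled summit only (middle) and unhosted genes with a reproducible summit (bottom); dotted lines are medians (-39.5, 37 and -44.5 bp). Both reproducible groups peak just before the start, and the pooled-only group is spread over the window.

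Like their snoRNA genes, most of these summits lay far from the hosts' own starts. The median distance from the 5′-most start of the host to the reproducible summit was 2684 bp (803 to 16018 bp, interval of the median 1282 to 5012 bp). To the nearest host transcript start of any kind it was 1343 bp. By the 200-bp rule these distances follow the place of the snoRNA gene. The snoRNA starts lay a median of 2714 bp from the 5′-most host start at bound genes and 1894 bp at genes without any summit. To the nearest host transcript start these medians were 1399 bp and 1302 bp. The snoRNA start was nearer to the summit than any host transcript start at 28 of 28 genes, which the 200-bp rule largely fixes. The separation was small at F55A11.10 and Y71F9AM.7, whose summits lay 81 bp and 184 bp from an annotated start of F55A11.6 and of cogc-3. At those genes a host promoter and a snoRNA promoter cannot be told apart by position. The summits of D1046.6 and Y37E3.20 lay 242 bp and 354 bp from an annotated start of cfim-2 and of pcyt-2.1. Of the pooled-only genes, 38 of 41 had the summit nearer to the snoRNA start, the others being F39B2.14 in tmem-107, C02F5.15 in rfs-1 and T08H4.9 in rhgf-2.

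Some hosts were bound at their own start. Of the 159 hosts, 4 had a reproducible summit within 200 bp of their 5′-most start, or 2.52% (0.983% to 6.29%), against 0.416% of all 19973 protein-coding genes. They were cdc-48.1 (signal 176.7), the gene of a AAA ATPase, iff-2 (105.8), for the translation factor eIF5A, eef-1G (72.88) and fbxl-2 (68.23). The snoRNA genes in cdc-48.1, iff-2 and fbxl-2 had no summit of either kind. eef-1G was the only one of these 4 hosts, and 1 of the 27 hosts of bound snoRNA genes, with reproducible summits both at its own start and at a hosted snoRNA gene. Counting pooled summits too, 5 of the 27 hosts of bound genes had one at their 5′-most start (18.5%), against 40 of all 159 hosts (25.2%) and 11.8% of all protein-coding genes.

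Where the snoRNA gene sat in the host went with whether it was bound. Introns were numbered in the longest host transcript that has the snoRNA gene in an intron, and other transcripts can number them differently. Bound F55A11.10, in intron 7 of 7, lay 124 bp from another annotated start of F55A11.6, with 82 intron bases before it. By this numbering, none of the 34 genes in a first intron had a reproducible summit (0%, upper Wilson limit 10.2%). In later introns 27 of 116 had one (23.3%, 16.5% to 31.7%). Genes that overlapped a host exon had one in 2 of 38 cases (5.26%), C51F7.4 and C14C10.8. By distance, the share was 7.84% (4 of 51) for starts within 500 bp of a host transcript start, 21.3% (13 of 61) for those beyond 500 and up to 2000 bp away, and 15.5% (11 of 71) for those farther. Introns that held a bound gene had a median length of 284 bp (quartiles 258 and 375). It was 297 bp for pooled-only genes (222 and 1290) and 684 bp for genes without any summit (252.5 and 3368). Genes without any summit thus sat in longer introns by the median, with overlapping quartile ranges. In ribosomal protein hosts, whose snoRNA genes were pooled-only or without any summit, the median was 221 bp.

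The share of bound genes also differed with the length of intron in front of the snoRNA gene. This was counted over the 150 genes wholly inside an intron of a host transcript. Some of them, C14C10.8 included, overlap an exon of another transcript of the host. Among the 150, 17 of the 38 with more than 50 and up to 200 intron bases between the upstream exon and the snoRNA start were bound (44.7%). Only 2 of the 50 with 50 bases or fewer were bound (4%), and 8 of the 62 with more than 200 (12.9%). Within the middle range the counts were 5 of 14 up to 100 bases and 12 of 24 above that. These bounds were chosen after the data were seen. The 2 bound genes with a short lead were F17C11.15 in eef-1G (35 bases) and F26D10.24 in hsp-1 (38 bases), and theirs were the same 2 summits that lay farthest inside the gene. All 27 reproducible summits of intronic genes fell downstream of the exon that opens the intron, so none was in the preceding exon.

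**Figure D3:**
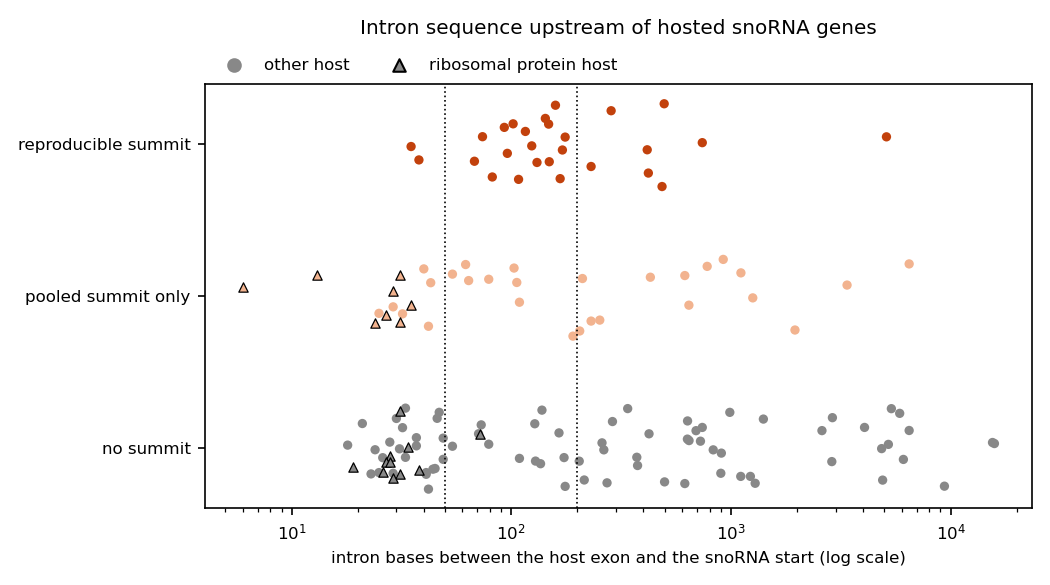
Number of intron bases between the upstream host exon and the snoRNA start (log axis) for the 150 hosted genes wholly inside an intron of a host transcript, by the kind of summit; triangles are genes in ribosomal protein hosts, and vertical scatter within a row only separates points. Dotted lines at 50 and 200 bases enclose 17 of the 27 bound intronic genes, and ribosomal protein hosts crowd at the left.

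Ribosomal protein genes are classical snoRNA hosts, and their snoRNA genes were not in the bound group. Of the 19 snoRNA genes in hosts named rpl- or rps-, 0 had a reproducible summit (upper Wilson limit 16.8%) and 8 had a pooled one. In other hosts, 28 of 164 had a reproducible summit (17.1%, 12.1% to 23.6%) and 33 a pooled one. The 8 pooled signals ran from 17.62 to 51.61 with a median of 30.84, and the median position was 59 bp inside the snoRNA gene. The snoRNA start lay a median of 29 bases from the upstream exon in these hosts (6 to 72), against 148 bases (35 to 5109) for the 27 bound intronic genes, so the short leads of ribosomal protein hosts go with the lack of bound genes there. Outside ribosomal protein hosts the share bound was 2 of 32 with 50 intron bases or fewer (6.25%) and 17 of 37 with more than 50 and up to 200 (45.9%). The difference by lead was thus as large without these hosts, while with 18 of the 19 ribosomal protein cases at 50 bases or fewer, a part of the host class itself cannot be told apart from the lead. The 4 snoRNA genes in nol-56, which itself encodes a core protein of box C/D particles, had no reproducible summit, and 1 of them, K07C5.12, had a pooled one (17.09).

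**Figure D4:**
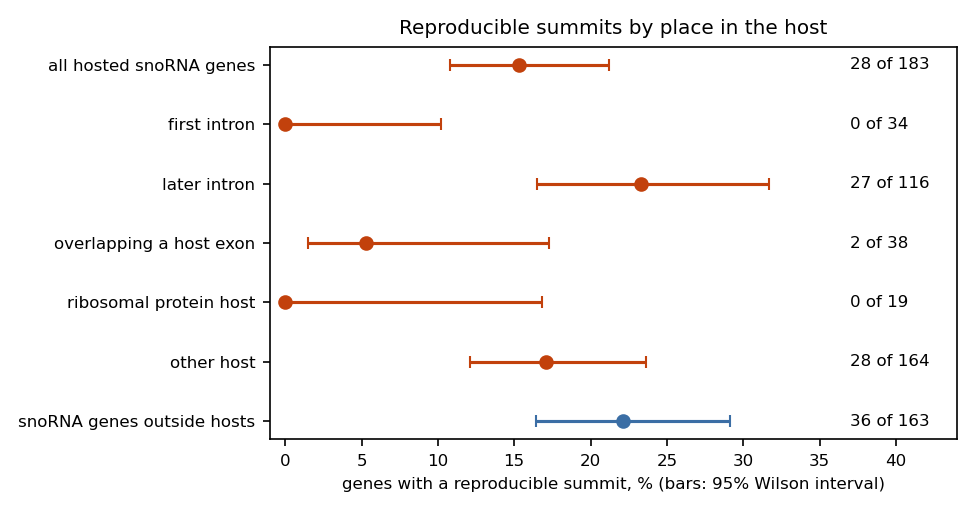
Percentage of snoRNA genes with a reproducible summit within 200 bp of the start, by place in the host (95% Wilson intervals, counts at right); rows overlap, since one gene can be in several. The shares for first introns and ribosomal protein hosts are 0, those for later introns 23.3% and for unhosted genes 22.1%. Introns are numbered in the longest host transcript that has the snoRNA gene in an intron.

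Among hosted genes with only a pooled summit, the highest signals were 68.04 at T06D8.11 in plpr-1, 64.95 at F54F11.6 in sre-45, 63.12 at F39B2.14 in tmem-107, 57.2 at W04D2.7 in inx-11 and 51.61 at C16A3.11 in the ribosomal protein gene rps-13. T06D8.11 fell just under the lowest reproducible value at a hosted gene, 69.32. Y43F4B.11 and Y43F4B.12 in klp-19 shared a pooled summit (34.59). As for the window, the reproducible summits farthest from the start were at 129 bp (F17C11.15) and 96 bp (ZK546.18), and the nearest left outside were at 247 bp from C16A3.11 (signal 95.3), 263 bp from C24A1.8 in elf-1 (136.7) and 390 bp from F17C11.14, the other snoRNA gene of eef-1G (86.14). Pooled summits just inside were at 196 bp (F28C6.11) and 193 bp (R12E2.17), and just outside at 204 bp (F56A11.14), 215 bp (K11H12.13) and 231 bp (D1054.17).

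The sequence before the bound genes resembled tRNA promoter letters at many of them. GTTCGA, part of the tRNA B box, was present on either strand in 9 of the 28 upstream windows (32.1%), against 2 of 41 pooled-only genes (4.88%), 5 of 114 without a summit (4.39%) and 2.96% of all protein-coding gene starts. Unhosted genes with a reproducible summit had it in 10 of 36 windows (27.8%), and the other unhosted genes in 3 of 127 (2.36%). The most frequent 6-mer was CTGCGC, in 11 of 28 windows (39.3%), against 1 of 114 without a summit and 1.27% of protein-coding starts, but that choice was made on these same windows. Bound unhosted genes had CTGCGC in 6 of 36 windows (16.7%), and the other unhosted genes in 5 of 127 (3.94%). GGTCGA, also chosen by its frequency, was in 9 of 28 windows and differs from GTTCGA in 1 letter. On the opposite strand it reads TCGACC, which can be part of TTCGANNC, so it is not a motif independent of the B box letters. TATAAA, letters of the TATA box, was before 2 of 28 bound genes (7.14%), 7 of 114 without a summit (6.14%) and 19.3% of protein-coding starts, and the first 2 shares rest on too few matches to be told apart.

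ACGCGC was in 8 of 28 windows (28.6%), against 1.75% of genes without a summit and 1.78% of protein-coding starts. GGCGCA was in 7 of 28 (25%), against 2.63% and 1.53%, and it can be part of an A box, as in the ZK546.18 window. CACTCG was in 4 of 28 (14.3%), against 2.63% and 1.83%. The motifs of this paragraph were chosen in earlier work on these data, so their shares only describe them. GC content also differed between these groups of genes. Its median in the windows was 56% at bound genes, 43% at pooled-only genes and 38% at genes without a summit, with 54.5% at bound unhosted genes and 32% at protein-coding starts, and its part in the motif shares was not tested.

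The motifs marked in the windows above were chosen after the windows were seen, so their shares only describe them. TGGCNNAG was in 11 of 28 windows (39.3%), against 4.39% of genes without a summit and 1.79% of protein-coding starts. TTCGANNC, which overlaps GTTCGA, was in 9 of 28 (32.1%), against 5.26% and 3.46%. At least one of them was in 15 windows (53.6%, against 9.65% and 5.2%) and both in 5 (17.9%, against 0% and 0.0551%). All 11 TGGCNNAG matches were on the snoRNA strand, with the first base between -67 and -53 (median -61), and the 8 windows with TTCGANNC on that strand had it at a median of -16. In Y43F8C.22, T24H7.6 and ZK546.18 the first bases of the matches were 44 or 45 bases apart, and in F55A11.10 they were 53 apart, in the order A box then B box of tRNA genes. The fifth window with both, that of Y71F9AM.7, had TTCGANNC on the opposite strand at -91, ahead of its TGGCNNAG, and so lacked this order. At unhosted bound genes the medians were alike, -58 and -13.5. Of their 36 windows, 25% held TGGCNNAG, 22.2% TTCGANNC and 36.1% either of them. Among the 127 other unhosted genes these shares were 7.87%, 4.72% and 11.8%.

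Some of these tRNA-like stretches are annotated. RefSeq lists a tRNA pseudogene across the upstream window of D1046.6 (D1046.t1), T08B2.13 (T08B2.t1) and F19H8.6 (F19H8.t1), each on the snoRNA strand and each running a few bases into the snoRNA gene. It begins 65, 68 and 62 bases before the start in that order of genes, and all 3 reproducible summits lay inside it. No pooled-only gene and no hosted gene without a summit had one (0 of 41 and 0 of 114). Among unhosted genes, 0 of the 36 bound ones had one, and 1 of the 92 without a summit did, Y59E1B.14. Over the nuclear genome, 4 of 209 tRNA pseudogenes (1.91%) had a reproducible summit within 200 bp of their start. No annotated tRNA gene started within 200 bp of any of the 28 genes, the nearest being 943 bp from ZK994.7, and each of the 28 upstream windows occurred once in the nuclear genome. Other annotated starts did lie close: 12 of the 28 summits had the start of another gene within 200 bp, of which 5 were ncRNA genes, 3 these pseudogenes, 2 protein-coding hosts and 2 the pair C51F7.3 and C51F7.4.

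The paired element marked a different set. It was in the windows of ZK994.7, C08D8.3, Y37E3.20, F01D5.12 and C16D9.11, or 5 of 28 (17.9%), on the snoRNA strand each time. It was also in 6 of 41 pooled-only windows (14.6%), T06D8.11, F54F11.6 and W04D2.7 among them, in 1 of 114 without a summit (0.877%) and in 8 of 19973 protein-coding starts (0.0401%). Unhosted genes had it at 5 of 36 bound genes (13.9%) and 17 of 127 others (13.4%), so there it did not go with a reproducible summit. None of the 28 windows held both this element and a tRNA-like match. Its first base was at -58 or -57 in 4 of the 5 bound hosted genes and at -80 in ZK994.7. Summit positions in the 5 ran from -45 to 27 bp with a median of -17 bp, and signals from 75.25 to 331.8 with a median of 88.26. The 15 genes with a tRNA-like match had summits at a median of -53 bp (-96 to 22) and a median signal of 124.1. The remaining 8 had none of the 3 motifs within the window: C51F7.4, C27H6.5, C10C6.8, D1046.6, C05D2.15, Y38F2AR.14, F26D10.24 and F17C11.15. Lack of a match is not lack of tRNA-like sequence in all of them. The D1046.6 window overlaps an annotated tRNA pseudogene, and at C05D2.15 and Y38F2AR.14 TTCGANNC runs across the snoRNA start. C51F7.4 shares its summit with C51F7.3, which has a tRNA-like match. The median signal of the 8 was the highest of the 3 sets, 171.9 (69.32 to 364.2). Their summits had a median position of -10 bp (-48 to 129).

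**Figure D5:**
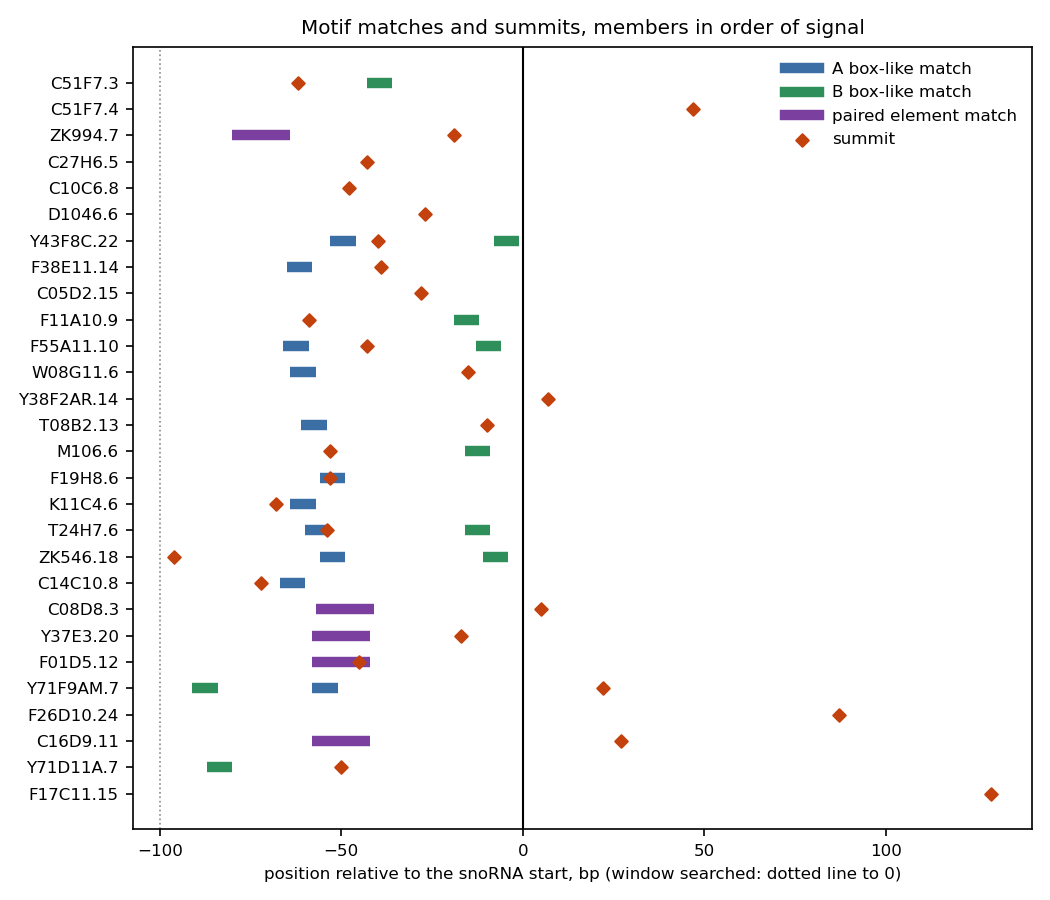
Position of motif matches (bars) and of the summit (diamonds) relative to the snoRNA start for the 28 bound hosted genes in descending order of signal; the 100 bases before the start were searched. A box-like matches begin between -67 and -53, most B box-like matches lie just before the start, and paired elements begin between -80 and -57.

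By the structure of the snoRNA itself, both main classes were bound. A strict rule (TGATGA in the first 25 bases and CTGA in the last 25 for box C/D, ACA within the last 8 for H/ACA) put 7 hosted genes in the C/D-like class, 61 in the H/ACA-like class and 115 in neither. Reproducible summits stood at 3 of 7, 12 of 61 (19.7%) and 13 of 115 (11.3%). With looser boxes, a rule added after the data were seen, they stood at 6 of 18 C/D-like genes (33.3%, 16.3% to 56.3%), 11 of 45 H/ACA-like genes (24.4%, 14.2% to 38.7%) and 11 of 120 others (9.17%, 5.2% to 15.7%). The intervals of the C/D-like and H/ACA-like classes overlap. Genes outside both classes are annotated snoRNAs whose ends do not match either rule.

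Bound genes were on every chromosome except X. Chromosome V had 12 of its 36 hosted genes bound (33.3%, 20.2% to 49.7%), IV 6 of 28 (21.4%), II 5 of 35 (14.3%), I 3 of 36 (8.33%), III 2 of 38 (5.26%) and X 0 of 10 (upper limit 27.8%). Chromosome V thus held 12 of the 28 bound genes (42.9%) and X 0, against 11.5% and 27.5% of all 600 nuclear reproducible peaks. This sets genes against peaks, and C51F7.3 and C51F7.4 on V count as separate genes though they share a summit. V also held 19.7% of all 183 hosted genes and X 5.46%.

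Among 8 listed protein genes of the snoRNA particles, 0 had a reproducible summit within 200 bp of a transcript start. The share over all protein-coding genes was 0.416% at the gene start, so 0 of 8 is near the background and is no result about these genes. The list holds fib-1 (the methyltransferase fibrillarin), nol-56, nol-58 and snu-13 for box C/D particles, and dkc-1 (the pseudouridine synthase), garr-1, Y48A6B.3 and nola-3 for H/ACA particles. Pooled summits that close were at 3 of the 8, nola-3 (43.63), fib-1 (42.92) and Y48A6B.3 (23.07), against 11.8% of all protein-coding genes at the gene start.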

How the data were processed

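Chromatin immunoprecipitation was sequenced from 2 replicates of 1 strain. Aligner, caller, IDR threshold and signal scale: all not given in the sources used here. The 4 deposited ce11 lists were used: the IDR optimal list (621 regions, 600 nuclear), the pooled list (16958) and one list per replicate (19514 and 17499). Column 7 of each deposited list is the signal, column 9 was read as the authors' −log10 q and column 10 as the summit.

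Genes came from Ensembl 115 (WBcel235), sequences and tRNA pseudogenes from RefSeq. Each snoRNA gene received the highest reproducible summit within 200 bp of its start, or else the highest pooled one. A replicate summit counted within 100 bp. With several hosts (3 genes) the shortest was taken. Named genes were the 25 highest by reproducible signal, the 5 highest pooled-only ones, those at the window's edge and those sharing summits, the few others being named from counts. Members, lists and some of the motifs were chosen with earlier results of these data known. Comparisons are counts, medians and 95% Wilson or order-statistic intervals, with no test. Alternatives changed the window, list, host rule and replicates. The assignment was tested on simulated summits. Python 3.11.15, numpy 2.4.6 and scipy 1.17.1 were used.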

Additional observations from a re-analysis of the deposited data

How the results depend on the processing

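Of 79 recomputed values under other settings, 73 stayed within the bounds set for sameness, 6 moved and none reversed. The bounds were 1.5 times a count, 1 SD of the replicate values or the interval of a median. Not all of the 73 could have moved. Leaving out genes with a tRNA gene within 200 bp removed none of the 183, so those values were fixed. The shorter reproducible list could not change the count with any pooled summit. The 200-bp rule largely fixed the count of summits nearer to the snoRNA start. A 500-bp window gave 107 hosted genes with any pooled summit and a median position of -33.5 bp. The 310 highest reproducible peaks gave -43 bp and 2 hosts bound at their own start. Hosts on either strand (216 genes) gave -33.5 bp. The median position ran from -37.5 bp without replicate 1 to -29.5 bp without replicate 2. For these changes the cause was not tested, apart from the larger window and the shorter list, which by construction take in more and fewer summits. Median signal and presence in both lists have no value without a replicate. No paired analysis was possible because the 2 replicates form a single group. With 1 group, no input and unknown read depth, presence of a summit depends on the authors' calling, and absence of one means only that none was listed.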
